A study of Mus musculus with 4 samples.

Results

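MHC class II antigen presentation is followed here through 10 genes, taken by symbol from the 56748 genes of the count table. They are the invariant chain gene Cd74, the classical chain genes H2-Aa, H2-Ab1 and H2-Eb1, the peptide-exchange genes H2-DMa, H2-DMb1 and H2-DMb2, their modulators H2-Oa and H2-Ob, and the transactivator gene Ciita. All 10 were found, each in 1 row, and 9 had enough counts to be tested, H2-Ob being the exception. Bulk RNA sequencing was done on lungs carrying metastases of 4T1, a mouse triple-negative breast cancer line, in 2 saline and 2 cmLumiOpto/PARPi libraries. The hosts were immunocompetent female BALB/cJ mice, which received 4T1-FLuc cells through the tail vein at 7 weeks of age and were treated for 3 weeks once metastases could be imaged. The treated mice were given cmLumiOpto, a mitochondria-targeted luminoptogenetic gene carried by exosome-associated AAV with an anti-CD276 antibody, its luciferase substrate ViviRen (2 mg/kg) and olaparib, which inhibits PARP (50 mg/kg). The control mice received saline, which the sample labels call PBS. The labels speak of tumour cells taken from lung and the study's methods of lung tissue. No source used here says whether the libraries of a group came from separate mice, so the p-values measure the spread between these libraries only.

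Class II molecules carry peptides from the endosomal pathway to the cell surface, where CD4+ T cells read them. The alpha and beta chains are assembled in the endoplasmic reticulum with the invariant chain (Cd74), which blocks the groove and routes the complex to endosomes. There proteases trim the invariant chain to a short peptide, H2-DM exchanges that peptide for antigen, and H2-O holds H2-DM back. Ciita, which does not bind DNA itself, turns the genes on by docking on a promoter complex, and interferon gamma induces it in cells that do not express class II by themselves. Dendritic cells, B cells and macrophages are the main class II carriers, and in the lung alveolar type 2 cells carry it too.

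The classical class II genes, H2-DM and H2-O lie together on chromosome 17, and their promoters share a set of short boxes on which the promoter complex forms. RefSeq promoter windows on GRCm38.p6 were held for 7 of the 10 genes, in 8 windows. The last 150 bases before the annotated start are printed for the 6 genes whose promoter held the Y box, since these letters are what the genes have in common outside their coding sequence. Capitals mark the Y box, searched as TGATTGG, the X box, searched as AAC, any 3 bases, then TGATG, and the X core GCAAC, which can overlap the X box. The gene strand is shown, 5′ to 3′.
H2-Aa, chr17:34287824-34287973, minus strand: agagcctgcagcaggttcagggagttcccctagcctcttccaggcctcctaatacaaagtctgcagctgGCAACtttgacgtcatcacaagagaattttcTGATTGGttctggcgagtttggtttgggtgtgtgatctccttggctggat
H2-Eb1, chr17:34305717-34305866, plus strand: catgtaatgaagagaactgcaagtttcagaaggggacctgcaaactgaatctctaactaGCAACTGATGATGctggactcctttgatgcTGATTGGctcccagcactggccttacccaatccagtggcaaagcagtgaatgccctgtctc
H2-DMb1, chr17:34153041-34153190, plus strand: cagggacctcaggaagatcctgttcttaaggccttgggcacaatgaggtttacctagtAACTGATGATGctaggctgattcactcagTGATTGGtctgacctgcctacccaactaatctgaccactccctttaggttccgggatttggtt
H2-DMb2, chr17:34145099-34145248, plus strand: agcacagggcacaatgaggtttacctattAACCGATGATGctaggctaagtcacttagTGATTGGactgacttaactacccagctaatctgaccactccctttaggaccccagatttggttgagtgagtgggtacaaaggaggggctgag
H2-Oa, chr17:34092229-34092378, plus strand: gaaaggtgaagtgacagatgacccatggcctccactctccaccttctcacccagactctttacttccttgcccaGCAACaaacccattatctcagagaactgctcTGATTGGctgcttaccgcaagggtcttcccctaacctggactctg
H2-Ob, chr17:34238755-34238904, plus strand: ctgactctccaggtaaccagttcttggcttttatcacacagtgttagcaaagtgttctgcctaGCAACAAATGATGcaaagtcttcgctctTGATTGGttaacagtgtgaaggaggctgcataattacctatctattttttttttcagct

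The Y box began between 45 bases (H2-Oa) and 92 bases (H2-DMb2) before the start. It stood in 6 of the 8 member windows, against 7.23% of all 32851 promoter windows, with both strands searched over the 250 bases before the start. The X box stood in 4 member windows, those of H2-Eb1, H2-DMb1, H2-DMb2 and H2-Ob, against 0.539% of all windows. In these 4 the X box was followed by the Y box after 15 to 18 bases, and only 6 of the 32851 windows held the pair within 8 to 25 bases, the others being those of 1700048F04Rik and Cic. H2-Aa and H2-Oa had the X core in its place, 26 bases before the Y box. The core alone is common, in 29.88% of windows. Neither window of H2-DMa held a Y box. The letters of the boxes were settled on after these promoters had been read, so the shares are a description, and a match is not evidence that a protein was bound.

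**Figure D1:**
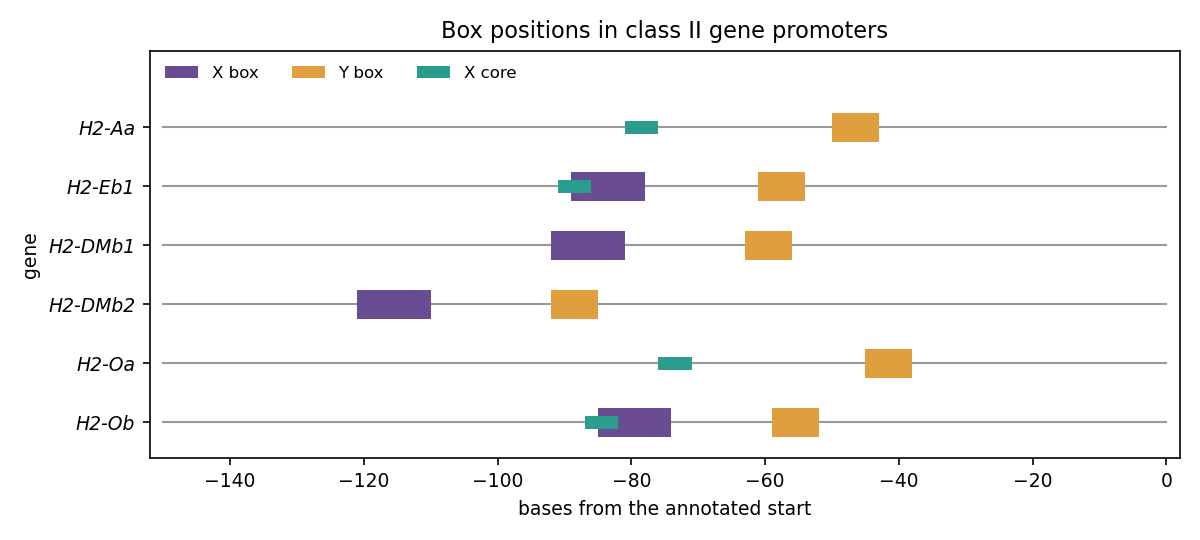
Position of the X box, the X core and the Y box in the promoters of 6 class II genes, in bases from the annotated start (x axis, start at 0). Bars span the matched bases, and in all 6 genes the Y box lies nearer the start than the X box or X core.

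The 4 libraries held between 15263375 and 16755228 counts, so that 3 counts, the least taken as detected, were worth 0.179 to 0.197 CPM (counts-per-million of the library total). Gene levels below are CPM after TMM scaling, and the floor covers counting error only. Across all genes no adjusted p was under 0.05 by edgeR's quasi-likelihood test (15167 genes, 0% called), 3221 genes had an unadjusted p under 0.05, and DESeq2 called 940. Alveolar type 2 markers were present in every library (Sftpc at 176 CPM or more), so all 4 libraries, which the labels assign to the 4T1 line, also held RNA of lung cells. The epithelial genes Krt8 and Epcam, which 4T1 cells share with lung epithelium, were at 149 CPM or more.

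None of the 10 class II genes separated the treated from the saline libraries. At an adjusted p of 0.05, 0 of the 9 tested genes were called by edgeR's quasi-likelihood test, 0 by DESeq2, and 0 had an unadjusted p under 0.05, where 21.2% of all tested genes did (9.21% higher and 12.0% lower after treatment). In all 9 the 2 groups overlapped, whereas they did not overlap in 55.2% of all tested genes. The fitted log2 fold changes ran from -0.17 for Ciita to 0.86 for H2-Aa, 7 above 0 and 2 below, with a median of 0.23 beside 0.02 over all tested genes. Leaving out treated replicate 1 changed the sign of 7 of these 9 values, and leaving out saline replicate 2 that of 4. The treated replicate 1 library was highest for 9 of the 10 genes and the saline replicate 1 library for the remaining one, H2-Oa. For 10 of 10 genes both of these libraries lay above saline replicate 2 and treated replicate 2. The share of all genes with this order was not computed. In a bulk sample, fewer class II cells and less class II RNA per cell cannot be told apart.

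**Figure D2:**
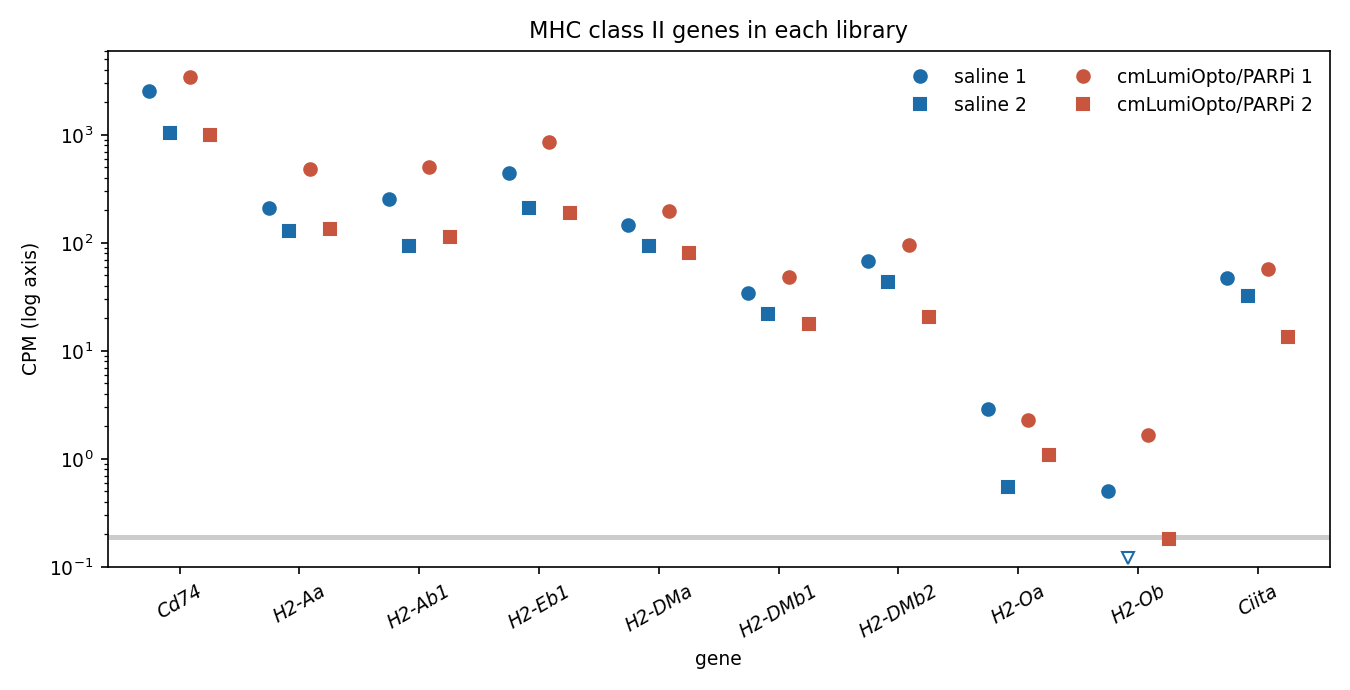
CPM (y axis, log scale) of the 10 class II genes (x axis) in each library, with saline in blue and cmLumiOpto/PARPi in red, circles for replicate 1 and squares for replicate 2. The grey band is the detection floor of 0.179 to 0.197 CPM, the open triangle is H2-Ob at 0 counts in saline replicate 2, and for every gene the circles lie above the squares.

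Cd74 (ENSMUSG00000024610, chromosome 18), the invariant chain gene, was by far the most abundant of the set. It had 2533 and 1031 CPM in saline replicates 1 and 2, and 3417 and 994 CPM in treated replicates 1 and 2. The highest and the lowest value were thus both in treated libraries, and the saline values lay between them. The group means were 1782 ± 1062 CPM (SD, n = 2) and 2206 ± 1713 CPM (SD, n = 2), a log2 fold change of 0.31 (SE 0.65, adjusted p = 0.812 by edgeR's quasi-likelihood test). Within the saline group replicate 1 was 2.46 times replicate 2, and within the treated group 3.44 times.

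The classical chain genes had the largest fitted changes of the set, and in these too the groups overlapped. H2-Aa (ENSMUSG00000036594, chromosome 17 from 34501718 to 34506797, as deposited), the I-A alpha chain gene, had 212 and 129 CPM in the saline libraries and 484 and 134 CPM in the treated libraries. Its treated replicate 2 lay within the saline range, and the log2 fold change was 0.86 (SE 0.59, adjusted p = 0.432 by edgeR's quasi-likelihood test). H2-Ab1 (ENSMUSG00000073421, chromosome 17 from 34476663 to 34488393), the I-A beta chain gene, had 257 and 92.5 CPM in saline and 499 and 114 CPM after treatment. Here as well treated replicate 2 fell between the saline values, with a log2 fold change of 0.81 (SE 0.75, adjusted p = 0.565 by edgeR's quasi-likelihood test). H2-Eb1 (ENSMUSG00000060586, chromosome 17 from 34524841 to 34535648), the I-E beta chain gene, had 444 and 209 CPM in saline and 855 and 188 CPM after treatment. Its treated libraries were the highest and the lowest of the 4, with a log2 fold change of 0.68 (SE 0.71, adjusted p = 0.613 by edgeR's quasi-likelihood test). With no filter on low counts the same test gave these 3 genes adjusted p-values of 4.2e-04, 0.00105 and 0.0119, in a fit that called 7.86% of 25435 genes, while their values in the libraries overlapped as before. Without treated replicate 1 the log2 fold changes of the 3 genes were -0.35, -0.62 and -0.80.

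The partner of H2-Eb1, the I-E alpha chain gene H2-Ea, was not in the set but stood in the table. C57BL/6 mice, the strain of the reference genome, do not express it, while BALB/c mice do. It had 463 and 193 CPM in saline and 857 and 190 CPM after treatment. The H2-Ea to H2-Eb1 ratio (a comparison added after the values were seen) stayed between 0.925 and 1.04 in CPM in the 4 libraries, so the levels of the 2 chain genes followed each other from library to library. H2-Eb2, a second I-E beta-like gene, had at most 0.921 CPM. The class II alleles of BALB/c differ from those of the reference, and how many of their reads failed to map was not tested; this bears on levels compared between genes and is shared by all 4 libraries.

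H2-DM, the peptide exchanger, followed the same order of libraries as Cd74. H2-DMa (ENSMUSG00000037649, chromosome 17 from 34338515 to 34358075), its alpha chain gene, had 145 and 92.8 CPM in saline and 198 and 80.3 CPM after treatment, a log2 fold change of 0.22 (SE 0.44, adjusted p = 0.796 by edgeR's quasi-likelihood test). H2-DMb1 (ENSMUSG00000079547, chromosome 17 from 34372046 to 34379204) had 34.4 and 22.1 CPM in saline and 48.2 and 17.7 CPM after treatment. H2-DMb2 (ENSMUSG00000037548, chromosome 17 from 34362281 to 34370529) had 67.6 and 43.3 CPM in saline and 95.3 and 20.6 CPM after treatment. The saline values lay between the treated ones for all 3 genes. The beta chain genes had log2 fold changes of 0.23 (H2-DMb1, SE 0.48) and 0.06 (H2-DMb2, SE 0.66), with adjusted p-values of 0.813 and 0.967 by edgeR's quasi-likelihood test.

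The 2 beta chain genes lie next to each other and resemble each other: 27.2% of the 50-base windows of the longest H2-DMb1 transcript occur unchanged in H2-DMb2 transcripts, so reads could be split between them and their separate levels are uncertain. The H2-DMb2 to H2-DMb1 log2 ratio, added after the values were seen, was 0.97 in both saline libraries, 0.98 in treated replicate 1 and 0.21 in treated replicate 2. In 3 libraries H2-DMb2 was therefore close to 1.97 times H2-DMb1, and in treated replicate 2 it was 1.16 times. The groups overlapped in this ratio (treated minus saline -0.37, exact permutation p = 1, two-sided). With 2 libraries against 2 the smallest two-sided p that permutation can give is 0.333.

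H2-O, which restrains H2-DM and is found mainly in B cells and some dendritic cells, had the lowest counts of the set. H2-Oa was above the detection floor in every library, and H2-Ob was at or under it in a library of each group. H2-Oa (ENSMUSG00000024334, chromosome 17 from 34311314 to 34314208) was counted 46 and 8 times in saline replicates 1 and 2, and 40 and 18 times after treatment. In CPM this was 2.88 and 0.545 against 2.30 and 1.08. Both treated values lay between the saline ones, with a log2 fold change of -0.02 (SE 0.84, adjusted p = 0.990 by edgeR's quasi-likelihood test). H2-Ob (ENSMUSG00000041538, chromosome 17 from 34457877 to 34473388) had 8 and 0 counts in saline and 29 and 3 after treatment. It was too low to be tested, and no fold is given because a library of each group was at or under 3 counts. H2-Oa stood at 0.0072 to 0.0207 of the level of H2-DMa in CPM (log2 CPM with a prior count of 2), not scaled by gene length (1407 and 3448 bases). Per kilobase, the mean CPM over the 4 libraries was 1.21 for H2-Oa and 37.4 for H2-DMa. The log2 ratio differed by 0.15 between treated and saline (exact permutation p = 1, two-sided).

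Ciita (ENSMUSG00000022504, chromosome 16 from 10297923 to 10346282), the transactivator gene, had 47.7 and 32.1 CPM in the saline libraries and 57.4 and 13.4 CPM in the treated ones. Treated replicate 2 was below both saline libraries and treated replicate 1 above both. The log2 fold change was -0.17 (SE 0.63, adjusted p = 0.896 by edgeR's quasi-likelihood test), the lowest fitted value among the 9 tested genes. Without treated replicate 1 it was -1.58, and without treated replicate 2 it was 0.50.

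**Figure D3:**
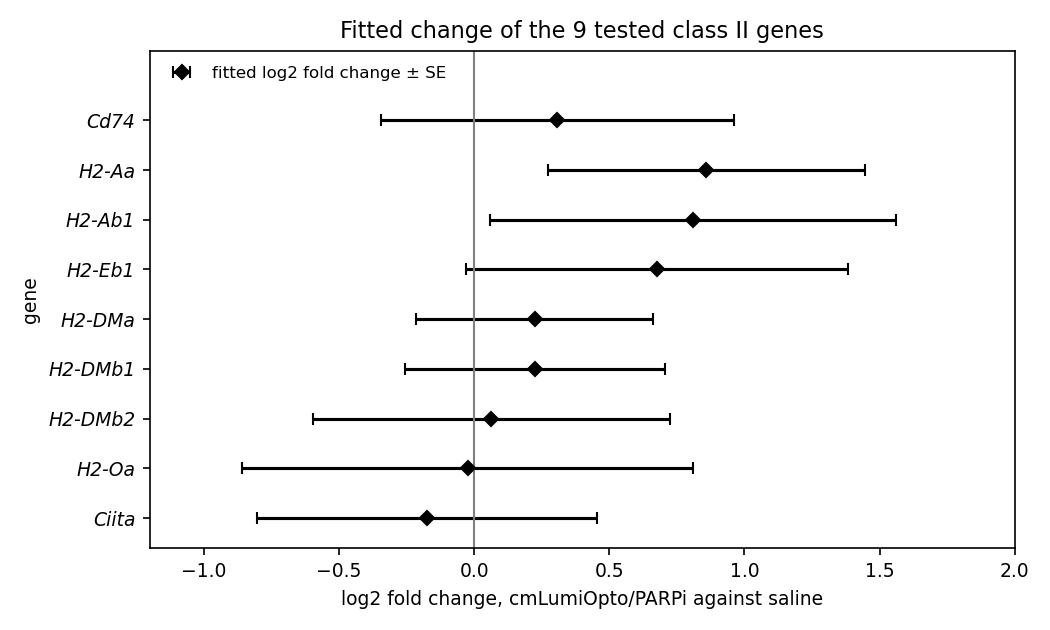
Fitted log2 fold change (x axis, cmLumiOpto/PARPi against saline) of the 9 tested class II genes, with bars of 1 standard error. For 7 genes the change is smaller than its standard error, and H2-Aa (0.86 ± 0.59) and H2-Ab1 (0.81 ± 0.75) are the exceptions.

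Ratios between the genes, which do not depend on the library size, were looked at for 8 pairs, 5 planned and 3 added after the values were seen. The groups separated for 4 of the 8, among them the added pair H2-Aa to Cd74, and none of these could pass a test. Single genes did so in 55.2% of all tested genes, and the share over other gene ratios was not computed. Several pairs share Cd74 or H2-Ab1, so they are not independent, and the count is a description only. The Ciita to Cd74 log2 ratio was -5.73 and -5.00 in saline and -5.89 and -6.21 after treatment. Both treated libraries thus held less Ciita per Cd74 than both saline libraries, by 0.69 on the log2 scale (exact permutation p = 0.333, two-sided, the smallest possible). The Cd74 to H2-Ab1 log2 ratio was 3.30 and 3.48 in saline and 2.78 and 3.12 after treatment, lower in both treated libraries (difference -0.44, exact permutation p = 0.333, two-sided). The H2-Aa to Cd74 ratio, added after the values were seen, was the counterpart on the alpha chain, with log2 values of -3.58 and -3.00 in saline and -2.82 and -2.89 after treatment. For H2-Eb1 to H2-Ab1 the log2 ratios were 0.79 and 1.17 in saline and 0.78 and 0.72 after treatment (exact permutation p = 0.333, two-sided). The H2-Ob to H2-DMb1 ratio cannot be read, because H2-Ob was at 0 counts in saline replicate 2 and the prior count sets the value there (a log2 difference of 1.32 with a prior count of 2 and of 2.14 with 0.5). The p-values of the ratios are not adjusted for their number.

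Per kilobase of the deposited gene length, the 10 genes and H2-Ea kept the same rank in each of the 4 libraries. The mean RPKM (CPM per kilobase) was 1188 for Cd74, 620 for H2-Ea, 218 for H2-Eb1, 93.7 for H2-Ab1 and 63.1 for H2-Aa. It was 37.4 for H2-DMa, 32.5 for H2-DMb2, 18.2 for H2-DMb1, 3.95 for Ciita, 1.21 for H2-Oa and 0.109 for H2-Ob. Cd74 exceeded H2-Eb1 by 2.52 on the log2 RPKM scale in the mean of the 4 libraries. The ranges over the libraries overlapped for 8 of the 10 pairs of neighbours in this order, for example 33.9 to 127 RPKM for H2-Aa and 36.0 to 194 for H2-Ab1. Both genes of a pair come from the same libraries, so these ranges hold the spread between libraries. Within each of the 4 libraries the lower-ranked gene was the lower one. H2-Ab1 had 100 and 36.0 RPKM in saline and 194 and 44.4 after treatment, and H2-Aa 55.7 and 33.9, then 127 and 35.2. These differences were not tested. The ranges did not overlap for H2-DMb1 (10.6 to 28.7) above Ciita (1.40 to 6.02), or for H2-Oa (0.387 to 2.05) above H2-Ob (0 to 0.310). The 10 genes together took 3745 and 1652 CPM in saline and 5658 and 1564 CPM after treatment. Cd74 made up between 60.4% and 67.6% of that sum.

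**Figure D4:**
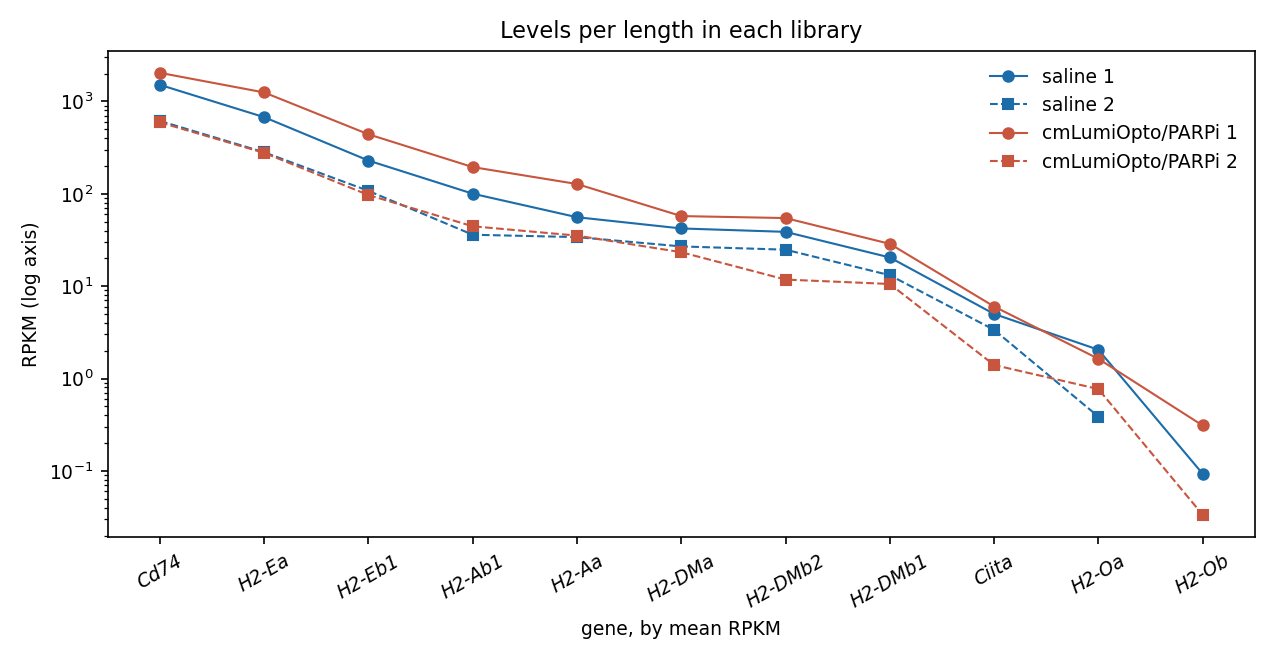
RPKM (y axis, log scale) of the 10 class II genes and H2-Ea, ordered by their mean (x axis), with 1 line per library (saline blue, cmLumiOpto/PARPi red, replicate 2 dashed). The order is the same in all 4 libraries from Cd74 down to H2-Ob, whose value of 0 in saline replicate 2 is not drawn.

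The spread within a group was larger for the class II genes than for most genes. The log2 CPM of the 2 saline libraries differed by a median of 0.71 over the 9 tested members, against a median absolute difference of 0.24 over all tested genes. For the 2 treated libraries the medians were 1.85 and 0.25. A wide spread was not particular to class II. In saline and treated libraries in turn, the median absolute difference was 1.54 and 1.43 for the T cell markers described below. It was 1.46 and 1.33 for dendritic cell markers and 1.96 and 1.45 for alveolar type 2 markers. Macrophage markers (0.38 and 0.45) and 4T1 epithelial genes (0.25 and 0.26) spread less. Replicate 1 was the higher library for 9 of 9 tested members in each group, beside 7497 (saline) and 7610 (treated) of all 15167 tested genes. The same held in each group for 9 of 9 T cell markers and 8 of 8 alveolar type 2 markers. For class I genes it was 11 (saline) and 12 (treated) of 12. Among the tested members the fold between replicates ran from 1.49 (Ciita) to 5.29 (H2-Oa) in saline. After treatment it ran from 2.13 (H2-Oa) to 4.63 (H2-DMb2).

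Genes outside the set that followed Cd74 most closely were ranked by the distance between log2 CPM profiles, each centred on its own mean, over the 4 libraries and among 10042 genes with a mean of 10 CPM or more. The nearest was Socs1, a feedback inhibitor of interferon signaling, at a distance of 0.160 (13.8 and 6.13 CPM in saline, 20.4 and 6.26 after treatment). The prothrombinase gene Fgl2 (distance 0.289), the ceramidase gene Acer2 (0.308), the complement gene C3 (0.337) and H2-Ea (0.369) came next. H2-Eb1 followed directly at 0.381, while Ciita, at 0.885, was the farthest of the members that passed the same minimum. With 4 points many profiles come close, so the ranking is a description.

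Genes for proteins that bind the class II promoter or assist Ciita differed little between replicates, by a median of 0.16 (saline) and 0.20 (treated) on the log2 scale. Of these 12 genes, 0 were called at an adjusted p of 0.05 by edgeR's quasi-likelihood test, 4 had an unadjusted p under 0.05, all lower after treatment (12.0% of all tested genes), 3 lay above both saline libraries in both treated libraries and 5 lay below (27.4% and 27.8% of all tested genes). The coactivator genes Carm1 and Ep300 had log2 fold changes of -0.55 and -0.53, with adjusted p-values of 0.143 and 0.145 by edgeR's quasi-likelihood test. Among those with a positive change, Nfya, Rfxank and Nfyb had log2 fold changes of 0.44, 0.55 and 0.25, with adjusted p-values of 0.314 to 0.370. Rfxank and Nfya encode parts of the X box and Y box complexes, and Rfx5, the DNA-binding partner of Rfxank, had 17.4 and 15.9 CPM in saline and 16.3 and 10.2 after treatment.

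Of the 10 genes leading from interferon gamma to Ciita, 9 were tested and 0 called. Ifng itself had between 0.181 and 2.13 CPM and was not tested. The smallest p-values in the list were those of the kinase gene Jak1 (log2 fold change -0.44, adjusted p = 0.164 by edgeR's quasi-likelihood test) and of Usf1, whose product binds a Ciita promoter (0.30, adjusted p = 0.247). Jak2 had -0.41 and the receptor gene Ifngr2 0.41, with adjusted p-values of 0.268 and 0.356. In these 4 of the 9 genes the groups did not overlap (55.2% of all tested genes), and 1 of the 9, Jak1, had an unadjusted p under 0.05 (21.2% of all tested genes).

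The endosomal genes that prepare antigen and trim the invariant chain had mostly positive changes, within the limits of the test. Of 12 tested, 11 had a log2 fold change above 0 and 7 lay above both saline libraries in both treated ones, beside 27.4% of all genes, with a median log2 fold change of 0.31. None was called, and 2 had an unadjusted p under 0.05, both higher after treatment (9.21% of all tested genes). Ctsh, a cathepsin gene that alveolar type 2 cells also express, had 214 and 163 CPM in saline and 393 and 325 CPM after treatment, a log2 fold change of 0.93 (adjusted p = 0.138 by edgeR's quasi-likelihood test). Cd63, a late endosome tetraspanin gene, and Cst3, which encodes the cathepsin inhibitor cystatin C, had log2 fold changes of 0.44 (adjusted p = 0.200) and 0.42 (adjusted p = 0.263). Ctss, the main invariant chain protease of class II cells, had 817 and 568 CPM in saline and 890 and 609 CPM after treatment, with overlapping groups. Ctsl ran against Cd74, with 784 and 1527 CPM in saline and 912 and 1615 CPM after treatment, so that replicate 2 was the higher library in each group.

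Among genes for surface turnover and costimulation, 0 of 7 were called and the groups of 6 overlapped, while those of 55.2% of all tested genes did not. Cd86, Cd40 and Cd83 had log2 fold changes of 0.58, 0.57 and 0.84, with adjusted p-values of 0.481, 0.447 and 0.483 by edgeR's quasi-likelihood test. Icosl was the gene whose groups did not overlap, with 9.22 and 8.93 CPM in saline and 12.5 and 9.51 after treatment. Marchf1, the ubiquitin ligase gene that removes class II from the surface, had 23.1 and 20.2 CPM in saline and 23.0 and 16.9 after treatment. Of 12 class I genes 0 were called, all 12 overlapped and the median log2 fold change was 0.12. The immunoproteasome gene Psmb9 had the smallest p among them (log2 fold change 0.50, adjusted p = 0.422). Replicates differed less in class I genes, by a median of 0.24 (saline) and 0.64 (treated) on the log2 scale, against 0.71 and 1.85 for class II; this difference was not tested.

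Markers of cells that carry class II moved with the libraries to different degrees. For each marker list the summed CPM is given in the order saline replicates 1 and 2, then treated replicates 1 and 2. The 13 dendritic cell markers summed to 688, 626, 601 and 541 CPM, a sum held mostly by Fscn1 and Irf8, which other cells also express. Of the 12 tested, 9 had a log2 fold change above 0 and 3 below, with a median of 1.09. Clec9a, a marker of cross-presenting dendritic cells, had 2.70, 0.409, 10.3 and 2.05 CPM, and Xcr1 had 2.13, 0.136, 6.85 and 0.903 CPM. In saline replicate 2 these were 6 counts of Clec9a and 2 of Xcr1, the latter under the detection floor. Zbtb46, another marker of the lineage, did not follow them, with 14.2, 13.4, 13.0 and 11.1 CPM, and Irf4 had a log2 fold change of -0.01. Of this list 2 markers, Cd209a and Siglech, were at 0 in saline replicate 2. The 11 B cell markers summed to 15.1, 7.77, 24.9 and 16.2 CPM, and Ms4a1 and Blk were at 0 in saline replicate 2. In the median over the tested genes of each list, both were highest in treated replicate 1, as class II was, and lowest in saline replicate 2.

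The 10 macrophage markers summed to 1929, 1653, 1992 and 1516 CPM, and this sum had the same order of libraries as Cd74 with a far smaller range. Single markers went different ways. Mrc1 and Mertk lay below both saline libraries in both treated ones (27.8% of all tested genes), with log2 fold changes of -1.06 and -0.59. Cd68 lay above (27.4% of all tested genes), with 0.39, and the groups of the other 7 overlapped. The 9 alveolar macrophage markers summed to 146, 448, 138 and 221 CPM, a sum held mostly by Chil3. Of the 8 tested, 6 had a log2 fold change above 0 and 2 below, with a median of 0.87. Those below were Chil3 itself (log2 fold change -1.43) and Pparg (-0.12), both with overlapping groups. In 4 of the 8 both treated libraries lay above both saline ones (27.4% of all tested genes), among them Ctsk (log2 fold change 2.11) and Ear2 (1.19). The 7 monocyte markers summed to 582, 520, 550 and 623 CPM, held mostly by Ace, which lung endothelium also expresses. The 9 T cell markers summed to 50.7, 18.3, 102 and 31.8 CPM. The 8 alveolar type 2 markers summed to 1719, 464, 8328 and 2973 CPM, with 7 markers above both saline libraries in both treated ones (27.4% of all tested genes), each at an unadjusted p under 0.05 (9.21%). The eighth marker, Abca3, lay below both saline libraries in both treated ones, with a log2 fold change of -0.33. Sftpc, with 1020, 176, 6153 and 2092 CPM, held most of the alveolar type 2 sum in all libraries but saline replicate 2. In treated replicate 2 the alveolar type 2 sum was above that of saline replicate 1 and the class II sum was below its own value there. This difference was not tested. The 7 epithelial genes of 4T1 cells summed to 3011, 3390, 2690 and 3849 CPM, a sum held mostly by Krt8 and Krt18. The genes did not share an order of libraries. Krt8 and Krt18 were highest in treated replicate 2 and lowest in treated replicate 1. Epcam and Cdh1 were highest in treated replicate 1 and lowest in saline replicate 2, and Krt14, Krt7 and Krt19 had other orders. None of the markers of these 8 lists was called at an adjusted p of 0.05 by edgeR's quasi-likelihood test. The part of any of these cell types in the class II levels was not tested.

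**Figure D5:**
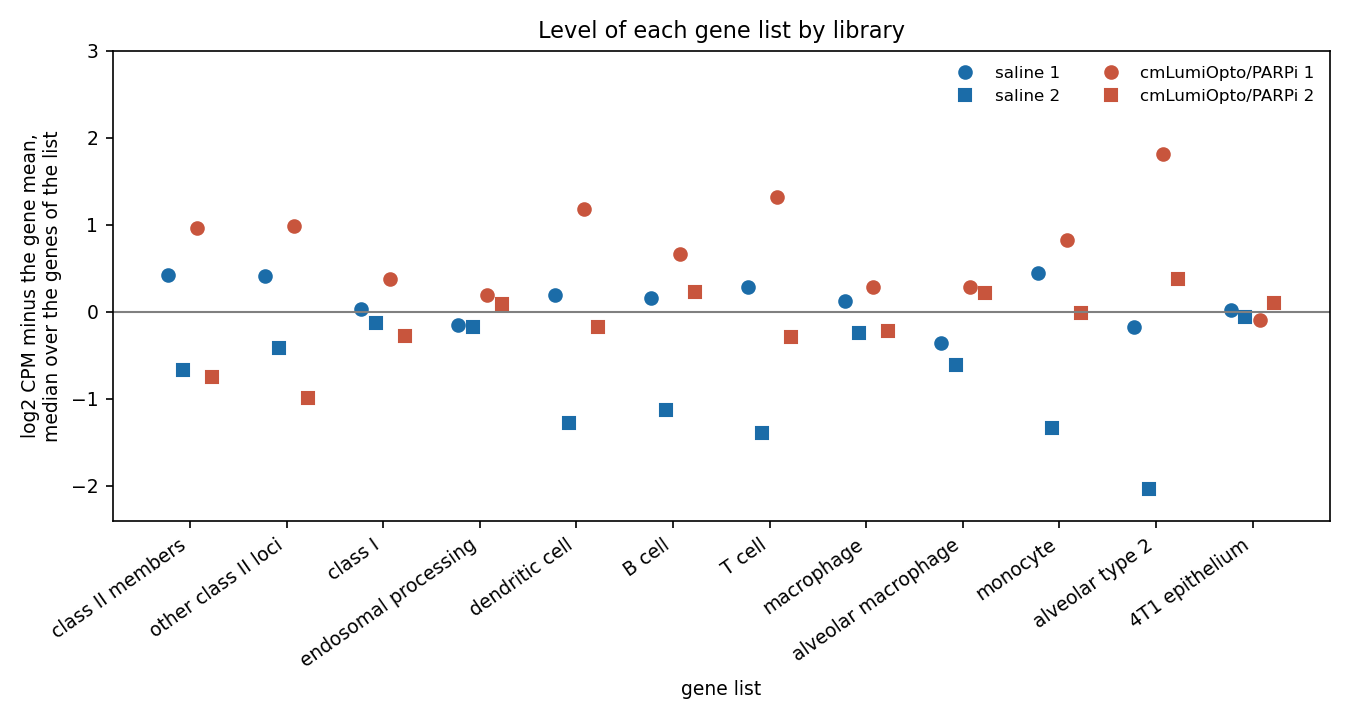
Level of each gene list (x axis) in each library, as the median over its tested genes of log2 CPM minus the gene's mean over the 4 libraries (y axis), with saline in blue, cmLumiOpto/PARPi in red, circles for replicate 1 and squares for replicate 2. For class II members the replicate 2 libraries are alike (-0.67 saline, -0.75 treated), whereas for dendritic cell genes they are -1.28 and -0.18 and for alveolar type 2 genes -2.03 and 0.37.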

How the data were processed

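RNA was measured in 2 saline and 2 cmLumiOpto/PARPi libraries. The authors mapped reads with HISAT2 and deposited raw read counts per gene with each gene's position and length; the counter, strandedness and annotation are not given in the sources used here. The study's methods name GRCm38 and the processing notes mm39. Of the deposited positions found in GENCODE M21 (GRCm38), 2.76% were the same there, and none of the members', so positions other than those of promoters are given as deposited.

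Counts were tested over the whole table with edgeR 4.0.16: genes were filtered by filterByExpr (minimum count 10), scaled by TMM and tested with the defaults of glmQLFit and glmQLFTest, with Benjamini-Hochberg adjusted p-values read at 0.05. The standard error is the log2 fold change divided by the square root of F. Log2 CPM used a prior count of 2. Ratios were tested by exact permutation of libraries. Promoters came from RefSeq (GRCm38.p6). Scripts were tested on simulated data. Alternatives were DESeq2 1.42.0, other normalizations and filters, glmQLFit without its legacy option, a gene length offset (loess, span 0.5), the replicate block, and leaving out each library. All 10 members are named, and of each further list up to 3 genes with the smallest p in each direction, besides genes that were picked after their values were seen: Rfx5, Ifng, Ctss, Ctsl, Icosl and the cell markers. A few genes of the further lists are not reported here. The members and lists were chosen with earlier results of these data known.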

Additional observations from a re-analysis of the deposited data

How the results depend on the processing

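No class II gene was called under 11 of the 12 alternatives for that count; with no filter on low counts 3 were (H2-Aa, H2-Ab1 and H2-Eb1). Over all genes the count of 0 became 940 with DESeq2, 2000 with no filter, 1822 with the replicate block and 0 to 31 when 1 library was left out (9 without saline replicate 2 and 31 without saline replicate 1). The sample numbers are shared by libraries that no source pairs, though same-numbered libraries deviated together (Spearman's rho = 0.298 across genes). With the replicate block 0 class II genes were called, and the log2 fold changes of H2-DMb2 and H2-Oa changed sign, to -0.26 and 0.19. The gene length offset turned Cd74, H2-DMb1 and H2-DMb2 to -0.013, -0.10 and -0.27, and upper-quartile scaling, which raised the median of all genes by 0.11, turned H2-Oa to 0.073; the cause was not tested.

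Leaving out 1 library at a time moved the log2 fold change from -0.84 to 1.08 for Cd74, -0.35 to 1.48 for H2-Aa, -0.62 to 1.71 for H2-Ab1, -0.80 to 1.37 for H2-Eb1, -0.57 to 0.71 for H2-DMa, -0.67 to 0.75 for H2-DMb1, -1.43 to 0.76 for H2-DMb2, -0.78 to 1.61 for H2-Oa and -1.58 to 0.50 for Ciita. The log2 ratio of the summed CPM, 0.42 with all libraries, ran from -0.79 without treated replicate 1 to 1.13 without saline replicate 1. A group left with 1 library is assumed to vary like the other. Depth limits only H2-Oa and H2-Ob.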
